A study of Caenorhabditis elegans with 2 samples.

Results

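The regions described here are divergent promoter pairs: protein-coding genes that are neighbours on a chromosome of Caenorhabditis elegans, point away from each other and have their annotated 5′ ends 1 to 1000 bp apart. By Ensembl's WBcel235 gene models there were 1745 such head-to-head pairs, made of 3490 of the 19973 protein-coding genes. A pair was counted as having a LIR-1 site when the summit of a peak lay between the 5′ ends or up to 200 bp inside either gene. By this rule 195 of the 1745 pairs had a site. LIR-1 is a nuclear zinc-finger protein of the LIN-26 family, and its places on DNA were mapped by chromatin immunoprecipitation and sequencing (ChIP-seq). All animals were of strain RW12318, in which allele st12318 puts a TY1, EGFP and 3xFLAG tag on lir-1 on chromosome II, made by CRISPR insertion. The worms were synchronised as starved first-stage larvae after bleaching and taken whole at 63 hours, as young adults. Sonicated chromatin was pulled down through the EGFP by an anti-GFP antibody. There were 2 libraries, biological replicates 1 and 2 of 1 group, so there was no contrast between conditions. No library of untagged animals was analysed here, so binding by LIR-1 cannot be told apart from other sources of precipitated DNA, and a site in whole worms cannot be given to a tissue.

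When the 5′ ends of neighbouring genes face away from each other over a short distance, the stretch between them carries the promoters of both. A factor held there is close to both genes, and its position alone does not say which of them it acts on, if either. In C. elegans many mature messages carry a trans-spliced leader, so an annotated 5′ end is often a splice position and transcription starts further upstream. The names below put the minus-strand gene before the slash and the plus-strand gene after it.

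The 8 windows below show the sequence at the 8 strongest pair sites, each of which is clear of annotated exons and wholly between the 5′ ends. Each holds the summit and 50 bp to either side, read on the plus strand from the RefSeq WBcel235 genome. Capitals mark the letters of any of 12 short words that were searched on both strands, and the words found are named in the paragraph on sequence. No word searched contains another, but matches can overlap, as GAGAGA and the reverse complement of CTGCGTCT do in the drr-2/set-16 window.
K01G5.10/tasp-1 (chrIII:10759206-10759306): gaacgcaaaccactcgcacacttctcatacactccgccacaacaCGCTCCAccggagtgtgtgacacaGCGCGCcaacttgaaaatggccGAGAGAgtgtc
rpl-15/K11H12.8 (chrIV:654866-654966): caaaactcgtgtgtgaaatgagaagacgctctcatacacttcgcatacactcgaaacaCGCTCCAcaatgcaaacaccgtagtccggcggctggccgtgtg
rpl-20/Y17G9B.5 (chrIV:4750019-4750119): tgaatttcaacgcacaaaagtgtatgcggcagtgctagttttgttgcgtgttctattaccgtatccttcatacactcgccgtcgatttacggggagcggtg
drr-2/set-16 (chrIII:13643682-13643782): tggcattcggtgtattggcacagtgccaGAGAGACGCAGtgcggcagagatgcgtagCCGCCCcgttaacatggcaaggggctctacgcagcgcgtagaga
cct-8/Y55F3AR.2 (chrIV:1094309-1094409): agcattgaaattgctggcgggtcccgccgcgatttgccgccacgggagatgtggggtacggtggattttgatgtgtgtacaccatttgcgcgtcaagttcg
prp-19/K10D2.5 (chrIII:5172614-5172714): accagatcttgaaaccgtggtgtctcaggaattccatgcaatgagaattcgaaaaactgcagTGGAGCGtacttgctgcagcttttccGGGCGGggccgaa
rpl-7A/set-21 (chrIV:4390614-4390714): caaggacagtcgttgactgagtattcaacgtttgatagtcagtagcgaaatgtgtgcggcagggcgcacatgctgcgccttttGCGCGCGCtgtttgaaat
Y22D7AL.10/hsp-60 (chrIII:1619085-1619185): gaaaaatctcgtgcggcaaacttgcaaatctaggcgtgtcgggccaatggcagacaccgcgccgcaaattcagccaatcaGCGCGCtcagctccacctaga

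The 195 pairs were 11.2% of the 1745, with an exact binomial 95% interval of 9.73 to 12.7%. In the peak list of replicate 1 alone 158 pairs (9.05%) had a peak, and in that of replicate 2 alone 105 pairs (6.02%) did. Of the 195 pairs, 85 (43.6%) also had a peak in both replicates' own lists and 42 (21.5%) in neither. Those 42 passed a threshold only where both libraries were used together. By site, 23.2% of those in pairs overlapped no peak of either replicate's list, against 33.1% of all other sites. In the other direction, 25 of the 1550 pairs without a site had a peak in a replicate's list. The intervals treat pairs as independent, cover counting error only and stand in place of a test, since no second group was measured.

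The pair windows held 203 sites, of which 187 were the only site of their pair and the other 16 lay in 8 pairs with 2 sites each. They were 16.8% of the 1209 sites of the authors' conservative set, and 30.6% of the 664 sites at protein-coding promoters. The windows covered 1.56 Mb, or 1.56% of the nuclear genome, and held 130 sites per Mb, where the genome as a whole held 12.1. Counted gene by gene, a summit lay from 1000 bp upstream to 200 bp downstream of the 5′ end for 398 genes of the pairs, which is 11.4%. Among the 16483 protein-coding genes outside the pairs the count was 485 (2.94%), and over all 19973 genes the share was 4.42%. A single site between 2 facing 5′ ends can count for both genes, so this last comparison counts some sites more than once.

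A count per window removes that double counting. Gene-free gaps of 1 to 1000 bp between neighbouring protein-coding genes were therefore sorted by the direction of the genes, and each gap was widened by 200 bp into both. A site lay in 191 of 1719 head-to-head gaps (11.1%, 95% interval 9.66 to 12.7%), in 147 of 5551 same-strand gaps (2.65%, 2.24 to 3.11%) and in 31 of 1805 tail-to-tail gaps (1.72%, 1.17 to 2.43%). Over all orientations the share was 4.07%. The head-to-head interval lay above both of the others. The order was the same in each library: the shares were 9.02%, 1.98% and 1.39% in replicate 1's list and 5.93%, 1.32% and 0.665% in replicate 2's list. A head-to-head gap holds 2 annotated 5′ ends, a same-strand gap 1 and a tail-to-tail gap none, and short same-strand gaps include neighbours within operons, whose downstream genes may have no promoter of their own.

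Matching the gaps by length kept the order of head-to-head above same-strand in each of the 5 spacing bins. The bins were 200 bp wide. For gaps of 1 to 200 bp the shares were 6.91% head-to-head and 0.856% same-strand, a ratio of 8.07. Above 200 and up to 400 bp they were 13.0% and 3.87% (ratio 3.36), and above 400 and up to 600 bp 13.7% and 4.68% (ratio 2.93). Up to 800 bp they were 11.9% and 2.78% (ratio 4.27), and up to 1000 bp 6.77% and 2.44% (ratio 2.77). The widest ratio thus stood at the shortest gaps, where the same-strand share was under 1%. Tail-to-tail shares ran from 0.464% at 1 to 200 bp to 3.25% between 400 and 600 bp.

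**Figure D1:**
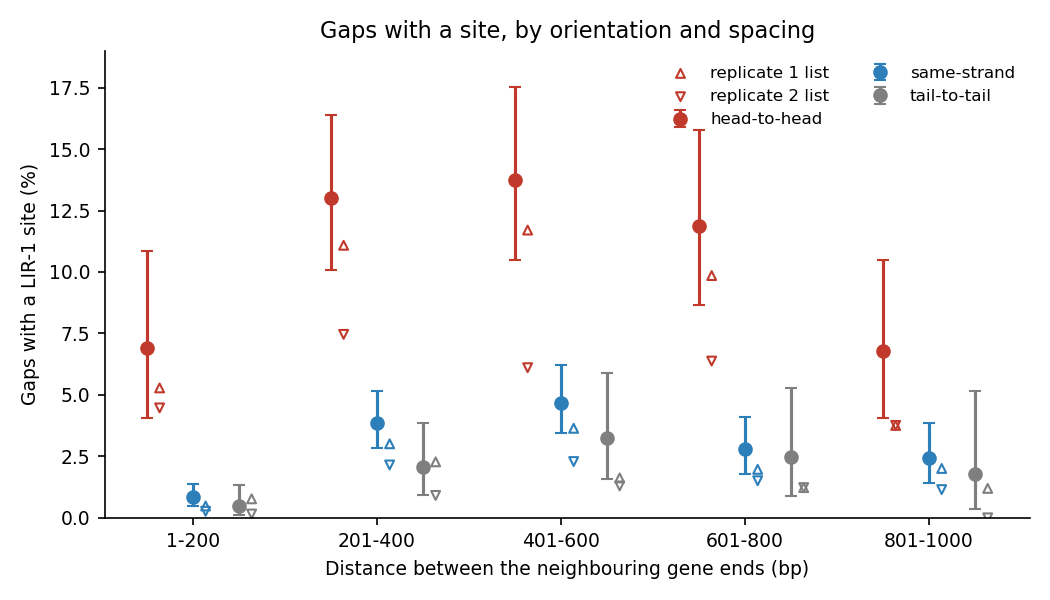
Percent of gene-free gaps with a LIR-1 site (vertical axis) by the distance between the neighbouring genes in bp (horizontal axis), for head-to-head, same-strand and tail-to-tail gaps. Filled points are the conservative set with exact binomial 95% intervals and triangles are each replicate's own list; head-to-head gaps lie highest in every bin, up to 13.7% between 400 and 600 bp.

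Among the pairs themselves the share with a site was highest at intermediate spacing. Sites lay in 17 of 248 pairs 1 to 200 bp apart (6.85%, 95% interval 4.04 to 10.7%), 61 of 474 in the next bin, up to 400 bp (12.9%, 9.99 to 16.2%), and 13.7% (10.5 to 17.5%) of those up to 600 bp, where 55 had one. In the bin up to 800 bp 41 of 351 pairs had one (11.7%, 8.51 to 15.5%), and in that up to 1000 bp 21 of 271 did (7.75%, 4.86 to 11.6%). The intervals of neighbouring bins overlapped. The same outer bins were lowest in replicate 1's list, at 5.24% and 4.43%, against 9.69 to 11.7% in the inner 3. In replicate 2's list they were also lowest, at 4.44% and 4.43%, but the inner 3 spanned only 6.23 to 7.38%. Per kb of window, which grows with spacing, the summits numbered 0.129, 0.188, 0.152, 0.115 and 0.0712 from the narrowest bin to the widest.

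The median spacing was 468 bp in pairs with a site (quartiles 295 and 626.5 bp) and 477 bp in pairs without (269 and 701 bp), so the medians hardly differ and the pairs with a site spread less. No sharp change was seen at the limit of 1000 bp, but the counts next to it are too small to exclude one. In the last 50 bp inside it 6 of 62 pairs had a site (9.68%, 3.63 to 19.9%), and in the first 50 bp outside it 4 of 54 did (7.41%, 2.06 to 17.9%). The shares inside and outside were 3.23% and 7.41% in replicate 1's list, and 3.23% and 3.70% in replicate 2's. From there to 2000 bp, in steps of 200 bp, the share stayed between 4.80% and 9.70%. The narrowest pair with a site was F25H9.6/F25H9.7 on chromosome V, whose 5′ ends are 15 bp apart and whose summit fell between them with a signal of 182.3. The widest was bath-42/prp-8 on chromosome III, at 990 bp with a signal of 102.5; prp-8 encodes the central protein of the spliceosome's catalytic core.

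Summits tended to lie between the genes rather than in them. Of the 203 summits, 187 lay between the 5′ ends and 16 at or inside a gene. With the spacing divided into 3 equal parts, 40 of the 187 (21.4%) fell in the part next to the minus-strand gene, 91 (48.7%, 95% interval 41.3 to 56.1%) in the central part and 56 (29.9%) in the part next to the plus-strand gene. The nearer 5′ end was that of the plus-strand gene for 114 summits and that of the minus-strand gene for 88, with 1 tie. The strand is only an orientation of the map, so these counts describe left and right and not a property of either gene.

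How central the summit was depended on the spacing. From the narrowest bin to the widest, the central part held 3 of 13 summits, 27 of 54, 38 of 54 (70.4%, 56.4 to 82.0%), 19 of 43 and 4 of 23 (17.4%, 4.95 to 38.8%). The distance from the summit to the nearer 5′ end had medians of 33, 89.5, 178, 230.5 and 206 bp over the same bins. It grew with spacing up to the bin that ends at 800 bp, but a summit between the genes can lie no farther than the midpoint. As a percent of the distance from a 5′ end to the midpoint, the medians were 51.7, 67.6, 74.9, 64.9 and 50.3%. In the widest pairs the median distance to the farther 5′ end was 684 bp. Over all pairs the median distance to the nearer 5′ end was 143 bp (quartiles 60 and 211.5 bp), and 172 summits (84.7%) were within 250 bp. That share was 100% in the bins up to 400 bp, where no summit can be farther. It was 89.1%, 61.4% and 68.0% in the wider bins. Of 152 sites in same-strand gaps, the median summit was 214 bp upstream of the gene that the gap precedes, and 52.5% of the 139 between the genes lay in the central part. A central position was therefore about as frequent in same-strand gaps as in head-to-head pairs.

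**Figure D2:**
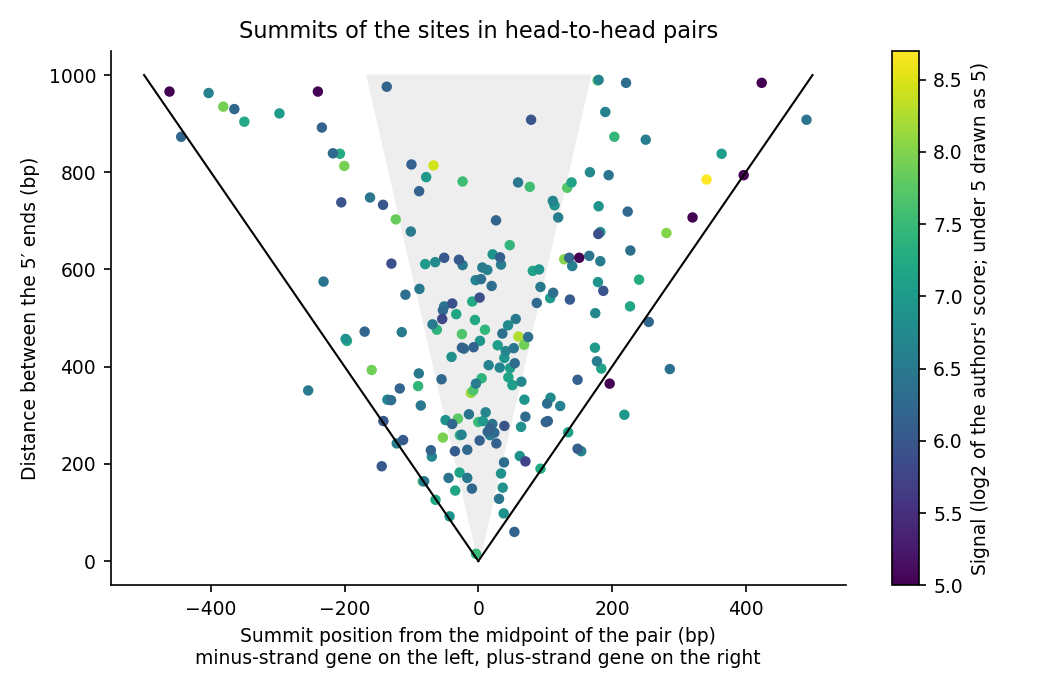
Each point is 1 of the 203 sites: its summit's position from the midpoint of the pair in bp (horizontal axis) against the distance between the 5′ ends in bp (vertical axis), coloured by log2 signal. The black lines are the 5′ ends and the grey area is the central part, which held 38 of the 54 summits between 5′ ends 400 to 600 bp apart and 4 of 23 in pairs over 800 bp apart.

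Signal is the height score that the authors' peak caller wrote for each peak; the files and labels do not give its scale, and it is used only to rank and describe peaks. At pair sites the median signal was 93.6 (quartiles 75.1 and 129), against 91.5 at the 461 promoter sites outside pair windows and 81.1 at the 545 sites outside promoters. Pair sites and other promoter sites thus had close medians. Of the 20 strongest sites of the series 3 lay in pairs, and of the strongest 100, 24 did, where pairs held 16.8% of all sites. Promoter sites outside pair windows made up 12 of the strongest 20 and 46 of the strongest 100. Signal had a Spearman's rho of −0.0143 with spacing and 0.0629 with distance to the nearer 5′ end over the 203 sites, which share the same libraries. Its median was 116 in the 17 sites of the narrowest pairs and between 92.6 and 94.3 in the other 4 bins. Close pairs could carry strong sites: mcrs-1/atp-1, at 190 bp, had 151.3, and rab-18/kbp-4, at 126 bp, had 148.8.

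Both libraries could be read at 199 of the 203 sites through their own ranked lists, whose scores are on their own scale. Replicate 1 was higher at 123 of them, the median ratio of replicate 1 to replicate 2 was 1.08, and the median coefficient of variation between them was 13.1%. Across these sites the replicates' signals had a Spearman's rho of 0.628, over sites that were chosen for agreement between the same libraries. Their summits lay a median of 18 bp apart, and 161 (80.9%) were within 50 bp. That distance is small beside the spacing of most pairs, but not of the narrowest.

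The strongest pair site was at K01G5.10/tasp-1 on chromosome III, between 5′ ends at 10758522 and 10759307. Its signal of 407.8 ranked 3 among all 1209 sites, with 205.0 in replicate 1 and 191.2 in replicate 2. The 5′ ends are 785 bp apart, and the summit was 51 bp upstream of tasp-1 (WBGene00010480), which encodes a threonine aspartase, a protease whose mammalian relative cleaves a histone methyltransferase. It lay 734 bp from K01G5.10 (WBGene00010481), for which RefSeq gives a haloacid dehalogenase-like protein.

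The next were at genes of the large ribosomal subunit. At rpl-15/K11H12.8 the signal was 349.0 (191.4 in replicate 1, 162.2 in replicate 2), and the summit was 340 bp from rpl-15 and 474 bp from K11H12.8. At rpl-20/Y17G9B.5 it was 305.8 (152.0 and 159.0), and the summit was nearer to Y17G9B.5, at 171 bp, than to rpl-20, at 291 bp. At rpl-7A/set-21 it was 249.3 (120.8 and 129.7), with the summit 74 bp from rpl-7A, and at rpl-12/lin-54 it was 239.4 (118.9 and 113.1), with the summit 37 bp from rpl-12. The partner genes are unlike their ribosomal neighbours: Y17G9B.5 has the RefSeq product name of a mitochondrial signalling intermediate, set-21 encodes a SET-domain protein, and lin-54 encodes a DNA-binding subunit of the DREAM complex, which represses cell-cycle genes.

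Pairs of other kinds stood in the same range. The site between drr-2, for an RNA-binding protein related to a translation initiation factor, and set-16, for a histone methyltransferase of the MLL family, had 279.2 (153.5 in replicate 1, 127.6 in replicate 2) and lay near the middle of 346 bp. The site between cct-8, for a subunit of the cytosolic chaperonin, and Y55F3AR.2 had 258.8 (132.1 and 122.2). At prp-19/K10D2.5, where prp-19 encodes a ubiquitin ligase of the spliceosome, it was 258.7 (138.8 and 120.7), and the summit lay 56 bp from K10D2.5. The pair Y22D7AL.10/hsp-60 joins both parts of the mitochondrial chaperonin: hsp-60 encodes its barrel, and Y22D7AL.10 has the RefSeq product name of the small mitochondrial heat shock protein that caps such barrels. Its site had 243.7 (122.2 and 115.4), 206 bp from Y22D7AL.10 and 607 bp from hsp-60.

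Signals of the remaining 12 of the strongest 20 pairs ran from 182.9 to 243.6. Besides rpl-12/lin-54 they were iff-2/F54C9.14, rps-19/hsr-9, epc-1/Y111B2A.12, larp-1/wip-1, ska-3/rps-12, ifet-1/rps-1, lin-53/nra-2, F44E5.4/F44E5.5, sec-61.B/trap-3, rps-15/F36A2.9 and F56G4.6/wbp-4. Among them, iff-2 encodes a translation factor, larp-1 and ifet-1 encode RNA-binding or translation regulators, and epc-1 and lin-53 encode chromatin proteins. The pair sec-61.B/trap-3 (189.6, with 104.2 in replicate 1 and 90.1 in replicate 2) joins genes for a subunit of the endoplasmic reticulum translocon and for a protein associated with it. F44E5.4 and F44E5.5 (98.6 in replicate 1 and 102.1 in replicate 2) are both heat shock protein genes of the Hsp70 family by RefSeq, and the files and labels do not say how reads that match both were treated. All 20 had a peak in both replicates' own lists. By difference, the replicates were farthest apart at larp-1/wip-1, with 126.2 in replicate 1 and 95.1 in replicate 2, and the higher replicate was replicate 1 in some pairs and replicate 2 in others.

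**Figure D3:**
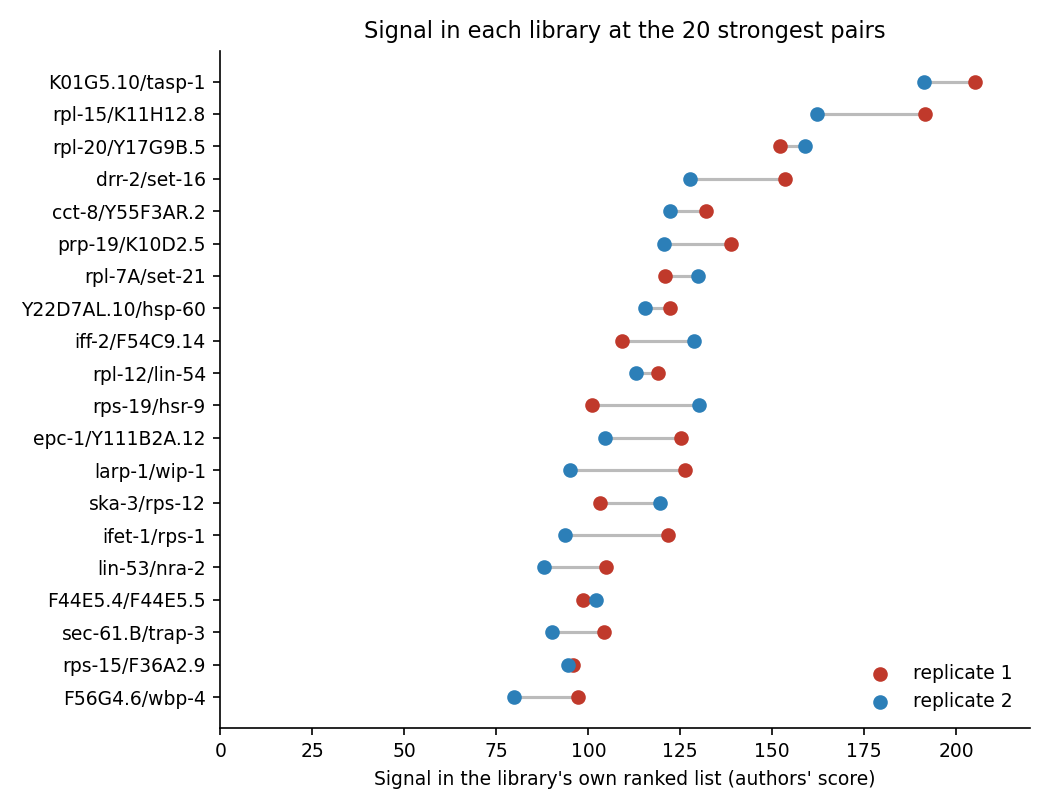
Signal in each replicate's own ranked list (authors' score, horizontal axis from 0) for the 20 pairs with the strongest sites, from strongest at the top. K01G5.10/tasp-1 had 205.0 in replicate 1 and 191.2 in replicate 2, above the other 19 pairs in both libraries.

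Of the 8 pairs with 2 sites, 2 had peaks that did not overlap. In ecps-1/atx-2 on chromosome III, 838 bp wide, the sites had 153.1 and 132.9 and their summits were 571 bp apart: the first lay 212 bp from ecps-1 and the second 55 bp from atx-2, the worm gene related to ataxin-2. Replicate 1 read 95.7 and 86.3 there, and replicate 2 read 62.1 and 55.4. In mzt-1/enu-3.3, 908 bp wide, the sites had 86.4 and 62.8 and lay 412 bp apart. In the other 6 pairs the peaks overlapped, their summits were 200 to 222 bp apart, and in 5 of the 6 both sites matched the same peak in each library, so these are not shown to be separate sites. All 7 pair sites with a signal under 50 were in such pairs, and the weakest site that stood alone in its pair had 53.1.

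The pairs were then grouped by what their genes encode, through 32 gene lists matched by symbol. Pairs with a member of a list are set against the 11.2% of all pairs. A count given for a replicate's list is of all pairs of the gene list with a peak there. Over all 1745 pairs the share was 9.05% in replicate 1's list and 6.02% in replicate 2's. Most lists are short, a pair can stand in more than 1, and a site cannot be given to the list member rather than to its neighbour.

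Among genes for protein synthesis, a site lay in 19 of 45 pairs with a ribosomal protein gene (42.2%, 95% interval 27.7 to 57.8%), 15 in replicate 1's list and 12 in replicate 2's. Ribosomal protein genes outside pairs had a promoter site about as often: 41.7% of the genes in pairs and 37.1% of the 35 outside did. In 8 of the 19 sites whose pair had 1 ribosomal gene, the summit was nearer to it than to its neighbour. These are sites and not the 19 pairs: the 1 pair with ribosomal genes on both sides is left out. The pair rpl-1/Y71F9AL.9 counts there with 2 overlapping sites. Among the pairs without a site were rps-14/rpl-36, rpl-39/rps-30 and rla-2/popl-7. Of pairs with a translation factor gene, 6 of 20 had a site (30%, 11.9 to 54.3%), with 5 in each replicate's list. They included clsp-1/eef-2 (136.2, 2 bp inside eef-2) and eef-1A.1/rfc-4 (129.4), genes for elongation factors, and the summit was nearer the translation factor in 5 of the 6. Mitochondrial ribosomal protein pairs had 4 of 25 (16%, 4.54 to 36.1%), led by mrps-7/Y57G11C.3 (92.8), with 3 in replicate 1's list and 1 in replicate 2's. Pairs of aminoacyl-tRNA synthetase genes had 1 of 11.

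Chaperone pairs had a site in 13 of 26 (50%, 29.9 to 70.1%), with 12 in replicate 1's list and 9 in replicate 2's. Genes of this list had a promoter site in 44.8% of cases in pairs and 10.5% of cases outside. Over all protein-coding genes the shares were 11.4% in pairs and 2.94% outside, so a lower share outside pairs is not particular to chaperones. Subunits of the cytosolic chaperonin recurred, with sites at cct-8, cct-1, cct-5 and cct-7, and none at the pairs of cct-4 and cct-6. Others were F54D5.9/dnj-13 (174.3), dnj-19/nhr-47 (141.3), of the DnaJ co-chaperone family, and hsp-110/rpn-3 (133.7). The 3 pairs of hsp-16 genes, small heat shock proteins known for their induction by stress, had none. The symbols hsp-16.1 and hsp-16.48 each recur among these pairs, and how reads with several matches were treated is not stated. In 3 of the 13 sites the summit was nearer to the gene of the list than to its neighbour. Members are matched by symbol, so Y22D7AL.10, itself a heat shock protein gene by RefSeq, counts here as the neighbour of hsp-60.

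Chromatin regulator genes followed, with a site in 7 of 15 pairs (46.7%, 21.3 to 73.4%), 7 in replicate 1's list and 5 in replicate 2's. These 7 included drr-2/set-16, rpl-7A/set-21 and F29B9.11/jmjd-1.2 (127.6), where jmjd-1.2 encodes a histone demethylase. The summit was nearer to the chromatin gene in 1 of the 7. All 3 pairs with a gene of the list named for retinoblastoma (Rb) and the DREAM complex had a site (100%, 29.2 to 100%). They were rpl-12/lin-54, lin-53/nra-2 (204.3) and vps-51/lin-35 (121.2), with 3 in replicate 1's list and 2 in replicate 2's. The site at vps-51/lin-35 had 73.0 in replicate 1 and 40.9 in replicate 2, and was absent from replicate 2's own thresholded list. Nuclear pore and transport pairs had 7 of 20 (35%, 15.4 to 59.2%), but only 4 in replicate 1's list and 3 in replicate 2's. The strongest of them was npp-3/top-2 (172.1). RNA polymerase and general transcription factor pairs had 4 of 11 (36.4%, 10.9 to 69.2%), led by rpb-12/aly-2 (99.6), with 2 in each replicate's list. Splicing pairs had 5 of 22 (22.7%, 7.82 to 45.4%), led by prp-19/K10D2.5, with 5 in replicate 1's list and 2 in replicate 2's.

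For further lists the interval held the 11.2% of all pairs. Respiratory chain pairs had 6 of 33 (18.2%, 6.98 to 35.5%), led by mcrs-1/atp-1. Cell cycle and DNA replication pairs had the same count, but 2 in replicate 1's list and 1 in replicate 2's. P granule and germline pairs had 3 of 13 (23.1%, 5.04 to 53.8%), led by C55B7.11/glh-2 (117.0), with 3 in replicate 1's list and 1 in replicate 2's. DNA repair and meiosis pairs had 3 of 20 (15%, 3.21 to 37.9%), led by H27M09.5/syp-4 (80.8), with 3 in replicate 1's list and 0 in replicate 2's. Membrane traffic pairs had 5 of 32 and proteasome pairs 2 of 20. There were 2 of 15 in nuclear hormone receptor pairs (13.3%, 1.66 to 40.5%) and 2 of 20 in cuticle collagen pairs (10%, 1.23 to 31.7%), the second with 1 in replicate 1's list and 0 in replicate 2's.

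Histone genes are often arranged as divergent pairs. Of 32 pairs with a histone gene, 2 had a site (6.25%, 0.766 to 20.8%, an interval that holds the share of all pairs), with 3 in replicate 1's list and 2 in replicate 2's. In 31 of the 32 there was a histone gene on both sides, and 1 of those, his-67/his-68 on chromosome I, carried 1 of the sites (106.2, with 61.0 in replicate 1 and 52.2 in replicate 2). The other site was at wapl-1/htz-1 (169.2), where htz-1 encodes the variant histone H2A.Z. Core histone genes are near-identical copies in clusters, and the files and labels do not say how reads with several matches were treated.

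In lists of large gene families few pairs had a site. Sites lay in 2 of 110 chemoreceptor pairs (1.82%, 0.221 to 6.41%), 1 of 65 F-box pairs (1.54%, 0.0389 to 8.28%) and 1 of 41 C-type lectin pairs (2.44%, 0.0617 to 12.9%). The stronger chemoreceptor site was at rsr-1/sri-5 (122.1), where rsr-1 is no chemoreceptor gene. Its summit was 252 bp from sri-5 and 480 bp from rsr-1, and in both chemoreceptor pairs with a site the chemoreceptor gene was the nearer. None of the 20 pairs with chemoreceptor genes on both sides had a site. The F-box site was at fbxb-85/hex-3 (169.2), with its summit 102 bp from fbxb-85 and 157 bp from hex-3. There was 1 of 27 (3.70%) in pairs with cytochrome P450, glucuronosyl transferase or glutathione transferase genes. Major sperm protein pairs had 0 of 20, with an upper limit of 16.8%. Neuronal marker pairs had 0 of 8 (upper limit 36.9%), intestinal marker pairs 0 of 4 (60.2%) and epidermal and muscle marker pairs 0 of 1 each. Of the lists in this paragraph, only chemoreceptor and F-box pairs had intervals wholly below the 11.2% of all pairs. Pharyngeal markers had no pair. Pairs with a gene of any list had a site in 102 of 665 cases (15.3%) and pairs with no listed gene in 93 of 1080 (8.61%).

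**Figure D4:**
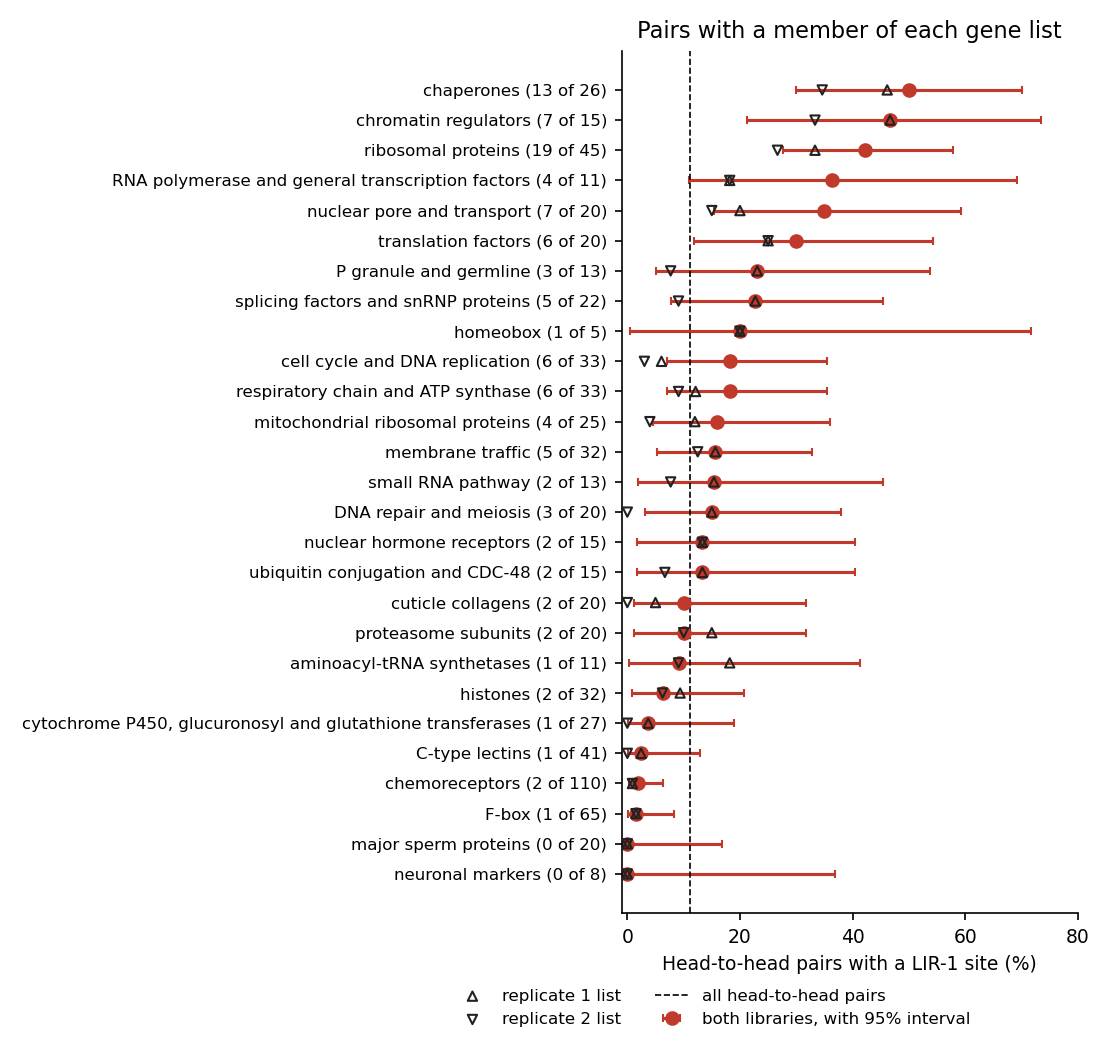
Percent of head-to-head pairs with a site (horizontal axis) for each gene list with at least 5 pairs, with the count in brackets. Points with bars are the conservative set and its exact binomial 95% interval, and triangles are each replicate's own list. The dashed line is the 11.2% of all pairs in the conservative set. Over all pairs the share was 9.05% in replicate 1's list and 6.02% in replicate 2's. The intervals of chaperone, chromatin, ribosomal protein, nuclear pore and translation factor pairs lie right of it. Those of chemoreceptor and F-box pairs lie left of it.

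Sequence at the summits was richer in G and C than at midpoints of pairs without a site or 500 bp away. The windows 500 bp away can fall inside the genes of the pair. The GC content of windows of the summit and 50 bp to either side averaged 48.9 ± 6.33% over the 203 pair sites (SD over windows), 34.2 ± 8.84% at the midpoints of the 1550 pairs without a site and 39.6 ± 8.36% in windows 500 bp to either side of the sites. At the 1006 sites outside pair windows it was 48.7 ± 7.67%, so the sites in pairs and the others had about the same composition. The words described next must be read against that composition, since a GC-rich word is more frequent in GC-rich sequence.

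Of the 9 words of the first search, CTGCGTCT lay in 9.85% of the pair site windows (95% interval 6.12 to 14.8%), 1.16% of midpoints without a site and 1.22% of windows 200 bp upstream of all protein-coding 5′ ends. In the same order, GAGAGA lay in 13.8%, 7.48% and 7.47%, the GC box GGGCGG in 7.39%, 3.55% and 2.28%, and TTCCCGCC, a form of the E2F site, in 2.96%, 0.323% and 0.381%. AT-rich words ran the other way: the TATA box word TATAAA lay in 4.43%, 14.4% and 13.1%, the T run TTTTTTT in 5.91%, 24.7% and 23.8%, and the GATA word AGATAA in 2.46%, 8% and 6.80%. TTTCAG, the splice acceptor word, lay in 8.37%, 16.6% and 16.9%. The E-box CACGTG lay in 2.96% (1.09 to 6.32%), 2.00% and 1.53%, so the interval of the first holds the other values. At the 461 promoter sites outside pair windows GAGAGA was in 18.4%, CACGTG in 4.99% and CTGCGTCT in 8.89%, each within the interval at pair sites (9.37 to 19.3% for GAGAGA). At all 1006 sites outside pair windows GAGAGA was in 21.6%, above that interval. There CACGTG was in 6.06% and CTGCGTCT in 7.95%, each within its interval at pair sites. In narrower windows, of the summit and 25 bp to either side, GAGAGA lay in 5.42% at pair sites (2.74 to 9.49%), 4.26% at midpoints and 3.77% upstream of all 5′ ends. There GGGCGG lay in 2.46% (0.804 to 5.65%), 1.68% and 1.09%. For both words the interval at pair sites thus held the values at midpoints and upstream of all 5′ ends. For GAGAGA in these narrower windows the interval lay below the 10.4% at promoter sites outside pair windows. It also lay below the 11.9% at all sites outside pair windows.

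A further 3 words were picked because they stood apart at pair sites from midpoints without a site, after all words of 7 letters and 12 chosen by hand had been looked at on the same windows. They were thus picked for being frequent in the pair site windows, so any contrast with these windows is a description and supports nothing. CTGGCGC lay in 12.3% of pair site windows, CGCTCCA in 11.8% and GCGCGC in 19.2%. At promoter sites outside pair windows the shares were 7.81%, 5.21% and 11.7%, at all sites outside pair windows 4.87%, 3.08% and 10.4%, and 200 bp upstream of all 5′ ends they were 0.621%, 0.851% and 1.39%. In the windows printed above, CGCTCCA occurred at K01G5.10/tasp-1, rpl-15/K11H12.8 and prp-19/K10D2.5, and GCGCGC at K01G5.10/tasp-1, rpl-7A/set-21 and Y22D7AL.10/hsp-60. CTGCGTCT occurred in the drr-2/set-16 window, GGGCGG there and at prp-19/K10D2.5, and no word occurred at rpl-20/Y17G9B.5 or cct-8/Y55F3AR.2.

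Genes for RNAs without a protein product also lay in some of the pairs. Where such a gene started between the 5′ ends, 30 of 137 pairs had a site (21.9%, 95% interval 15.3 to 29.8%), and where none did, 165 of 1608 had one (10.3%, 8.82 to 11.8%). Pairs with such a gene spanned a median of 611 bp and those without 461.5 bp, so they also differ in spacing. For genes annotated as ncRNA the count was 27 of 96 (28.1%), and for tRNA, snRNA, snoRNA, miRNA or rRNA genes it was 5 of 12. Of the 203 pair sites, 7 (3.45%) were at most 200 bp from the start of a small RNA gene of these last kinds, against 53 of the 461 promoter sites outside pair windows (11.5%) and 151 of the 545 sites outside promoters (27.7%).

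By chromosome, pairs had a site in 49 of 320 cases on I (15.3%), 31 of 324 on II (9.57%), 45 of 290 on III (15.5%), 33 of 308 on IV (10.7%), 33 of 423 on V (7.80%) and 4 of 80 on X (5%, 95% interval 1.38 to 12.3%). Many pairs without a site were not empty in the ranked list, which holds 36484 nuclear peaks before the threshold. A ranked peak lay in 585 of the 1550 pairs without a site (37.7%), with a median signal of 34.5 for the strongest of each pair. In 44 of them a peak had an irreproducible discovery rate under 0.05. The nearest to the set's limit were chst-1/C41C4.9, dagl-2/ppm-1.G and isp-1/islo-1, with rates of 0.0101, 0.0104 and 0.0105. Ranked peaks lay in 44.6% of head-to-head gaps, 28.9% of same-strand gaps and 25.9% of tail-to-tail gaps, so the order by orientation was the same before the threshold with a smaller ratio.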

How the data were processed

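Peaks are on ce11, per the labels, the assembly that the reference used names WBcel235. For each library the authors deposited a ranked list and a shorter list thresholded by irreproducible discovery rate (IDR), and for both libraries together 2 ranked lists and 2 thresholded sets. The deposited score in column 7 is called signal. The deposited ranked lists also give −log10 of the global IDR, here turned into a rate. Per the manifests, lists derive from filtered alignments and a control alignment that was not used here. Which aligner and peak caller were run, and how reads with several matches were treated, is not stated in the labels or files. Read totals are not given, so the depth is unknown.

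All 1209 peaks of the authors' conservative set were in the ranked list used, with the same start, end and summit, and 1206 were in the other. No peak passed the end of its chromosome. Gene models came from Ensembl release 115. Pairs are neighbours in the order of their 5′ ends; in 26 of the 1745 another protein-coding gene lies over the interval. A site's replicate value is the overlapping peak in that library's ranked list with the nearest summit. Shares carry exact binomial (Clopper-Pearson) 95% intervals and no test was run: the series has 1 group, and pairs are not replicates. On simulated gene models 1000 of 1000 pairs were found. Analyses used Python 3.11.

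The members, lists, words and margins were chosen with earlier results of these data known. Named pairs are those of the 20 strongest sites, up to 5 with 2 sites, the narrowest and widest with a site, and up to 3 per list by signal; other pairs named were chosen after their values were seen. One pair that this rule names is not reported here. Alternatives tried were the other thresholded set, each replicate's list, the stronger 50% of sites, peak overlap, no margin, other spacing limits, merged peaks, sites away from small RNA genes, pairs with no other gene over the interval, and narrower sequence windows of 51 bp.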

Additional observations from a re-analysis of the deposited data

How the results depend on the processing

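The head-to-head share stood above the same-strand share under every peak set, placing rule and margin tried, and no direction turned round. The size of several values followed the number of sites. With 1 replicate's list, the share of pairs with a site was 6.02 to 9.05% (11.2% in the conservative set). In the same lists, head-to-head minus same-strand was 4.62 to 7.04 percentage points (8.46), head-to-head minus tail-to-tail 5.27 to 7.63 (9.39), and the central part of the spacing held 46.9 to 49.0% of summits (48.7%). The median log2 signal of pair sites minus that of other sites was 0.12 to 0.14 (0.15), and 0.16 in the other thresholded set. With the stronger 50% of sites these were 7.16%, 5.69, 6.32 and, for log2 signal, 0.071.

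The excess of pairs over 200 and up to 600 bp apart, a split chosen after the shares were seen, was 4.18 points (13.3% against 9.08% in the other pairs). It was 1.68 to 4.53 points in the single replicates' lists, lowest in that of replicate 2, and 1.91 with the stronger 50%. The share of all pairs with a site was also lower there, at 6.02% for replicate 2 and 7.16% for the stronger 50%. The points therefore do not show whether the excess rests on replicate 1 or on the weaker sites.

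In 51 bp windows the shares at pair sites were smaller: TATAAA 1.97%, GGGCGG 2.46%, TTTCAG 3.45%, TTTTTTT 1.48%, GAGAGA 5.42% and CTGCGTCT 4.93%. The shares at midpoints of pairs without a site were 7.48%, 1.68%, 7.94%, 11.5%, 4.26% and 0.452%, so GAGAGA and GGGCGG no longer stood apart from them. No paired analysis was possible because the series has 1 group. The depth of the libraries is unknown, so a pair without a site is one where none passed the threshold.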
